A study of Homo sapiens with 10 samples.

Results

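Yes-associated protein 1 (YAP1), its DNA-binding partner TEAD1 and 8 genes known as their targets or regulators were followed through RNA-seq libraries of human prostate cancer cells. The 10 genes, YAP1, TEAD1, CCN1, CCN2, ANKRD1, AXL, AMOTL1, AMOTL2, AJUBA and LATS2, were found by current or older symbol among 57445 gene identifiers, and every one matched exactly 1 identifier. The cells were PC3, an established line from a bone metastasis of prostate cancer, in 5 groups of 2 libraries. By label, a group stably expressed the hairpin RNF2 shRNA1 and another the hairpin RNF2 shRNA2. The labels name RNF2, a ubiquitin ligase of Polycomb repressive complex 1, as the target of both. RNF2 levels under the RNF2 shRNA2 label, given below, went against that label. A group each was treated for 48 hours with PRT4165, which is known to inhibit that ligase, or with GW-516, a compound given by code name only. Controls were PC3 cells that stably expressed a Scramble hairpin. The labels give no dose, no vehicle group and no statement on whether compound-treated cells carried a hairpin. In every comparison of a compound with Scramble, the compound therefore cannot be told apart from its vehicle, the hairpin vector and separate culture.

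YAP1 is a transcriptional coactivator without a DNA-binding domain of its own and acts mainly through TEAD factors. When the Hippo pathway is active, the kinases LATS1 and LATS2 phosphorylate YAP1, which keeps it in the cytoplasm. In the nucleus, YAP1 with TEAD raises transcription of secreted matricellular proteins, cytoskeletal regulators and several of the pathway's own inhibitors, so a set of its targets feeds back on it. The messenger RNA levels reported here do not measure the location or phosphorylation of YAP1.

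Total counts per library ran from 65877850 to 108380198. RNF2 averaged 12.02 ± 0.081 normalized CPM (counts scaled to library size) in RNF2 shRNA1 libraries and 29.5 ± 1.60 CPM in Scramble libraries (SD, n = 2 each; log2 fold change -1.29, edgeR adjusted p = 2.3e-15). The RNF2 shRNA2-labelled libraries went against their label: RNF2 averaged 34.4 ± 1.25 CPM there, above Scramble (log2 fold change 0.23, edgeR adjusted p = 0.001). BMI1, another Polycomb repressive complex 1 subunit, averaged 57.3 ± 6.07 CPM in the RNF2 shRNA2-labelled libraries and 253 ± 2.30 CPM in Scramble libraries (log2 fold change -2.14, edgeR adjusted p = 9.8e-12). Library names in the file headers use MDV3 in place of PC3, Th4 in place of GW-516 and a number in place of RNF2 shRNA2, with no explanation in the sources used here. The header name of replicate 2 of the RNF2 shRNA2-labelled libraries also ends in L005only. Whether Th4 is GW-516 cannot be settled from these names, and values are given under the labels' names. Whether the libraries of a pair were separate cultures is not stated in the labels, so p-values measure only the spread between these libraries, which may be technical. Within Scramble, RNF2 shRNA1 and GW-516, the libraries of a pair differed by little more than counting noise (chi-square per degree of freedom 1.08 to 1.1 after halving the counts, since both ends of a fragment were counted). The same measure was 6.11 for the pair labelled RNF2 shRNA2 and 3.44 for the PRT4165 pair. Results that lost their call when the 3 near-identical pairs were each summed to 1 sample are named below.

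Markers of the cells were those of an epithelial line. The 5 epithelial markers KRT8, KRT18, KRT19, EPCAM and CDH1 summed to between 1158 and 1590 CPM per library. Of the luminal prostate markers, KLK3 reached at most 0.0286 CPM and TMPRSS2 at most 0.0837 CPM, and KLK2 was at 0 in every library. Leukocyte markers summed to at most 0.488 CPM, and the endothelial markers VWF and CDH5 to at most 0.189 CPM. Of the 5 fibroblast markers COL1A1 and COL1A2 were detected above 1 CPM, whereas DCN reached at most 0.243 CPM and LUM at most 0.0304 CPM. The summed fibroblast list, nearly all collagen, was 164.9 to 169.5 CPM in RNF2 shRNA1, 268.8 to 275.5 CPM in the RNF2 shRNA2-labelled libraries, 234 to 244 CPM in PRT4165, 183 to 189 CPM in GW-516 and 276 to 279.8 CPM in Scramble. The summed epithelial list was 1158 to 1160.0 CPM in RNF2 shRNA1, 1167 to 1196 CPM in the RNF2 shRNA2-labelled libraries, 1283 to 1359 CPM in PRT4165, 1564 to 1590.0 CPM in GW-516 and 1237 to 1247 CPM in Scramble. The part of these shifts in the results on YAP-TEAD genes was not tested. In bulk libraries, fewer cells of a kind and less RNA per cell cannot be told apart.

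Per length, as RPKM (normalized CPM divided by exon length in kilobases), YAP1 had the highest level of the 10 genes in Scramble libraries, at 25.4 ± 0.0876 RPKM, followed closely by CCN2 at 25.1 ± 0.357 RPKM (SD, n = 2 each). CCN1 stood at 20.7 ± 0.0525 RPKM and TEAD1 at 17.97 ± 0.224 RPKM. AMOTL1 and AJUBA were intermediate, at 9.15 ± 0.0666 and 6.30 ± 0.252 RPKM. AXL, AMOTL2 and LATS2 lay between 1.15 and 2.58 RPKM, and ANKRD1 was nearly absent at 0.0147 RPKM. In RNF2 shRNA1 libraries the order was headed by CCN1 at 91.5 ± 2.32 RPKM and CCN2 at 48.5 ± 0.111 RPKM, and YAP1 followed at 24.98 ± 0.0593 RPKM.

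**Figure D1:**
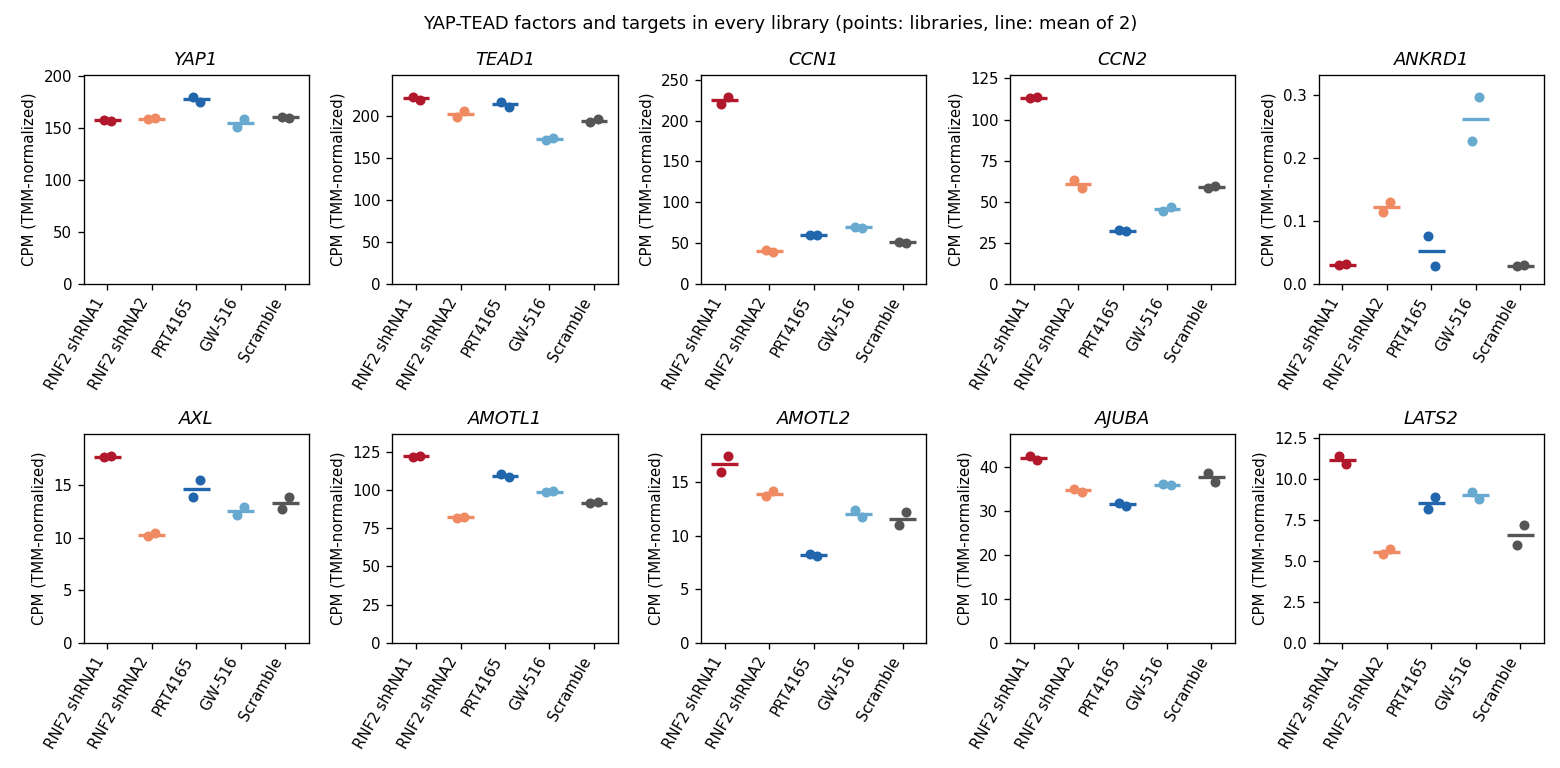
Normalized CPM (vertical axes, each from 0) of the 10 YAP-TEAD genes in each library. Points are libraries and lines group means of 2. CCN1 and CCN2 stand apart in RNF2 shRNA1 libraries, CCN2 and AMOTL2 are lowest with PRT4165, and ANKRD1 stays under 0.3 CPM everywhere.

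The transcripts of both factors varied little. YAP1 (chr11:101981192-102104154, plus strand, GRCh37, as all gene positions from the count tables) had 158 and 157 CPM in RNF2 shRNA1 libraries, 159 and 159 CPM in the RNF2 shRNA2-labelled libraries, 179.7 and 175 CPM in PRT4165 libraries, 151 and 159 CPM in GW-516 libraries, and 161 and 159.8 CPM in Scramble libraries. The PRT4165 libraries were above all others, and the remaining 4 groups lay close together. YAP1 rose with PRT4165 by a log2 fold change of 0.15 (SE 0.031, 1.11-fold, edgeR adjusted p = 0.0004) and was not called against Scramble elsewhere. The 95% intervals of those log2 fold changes were -0.09 to 0.04 for RNF2 shRNA1, -0.08 to 0.05 for the RNF2 shRNA2-labelled libraries and -0.11 to 0.01 for GW-516, whose log2 fold change was -0.05 (0.00021 without GW-516 replicate 1).

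TEAD1 (chr11:12695969-12966298, plus strand), the factor that places YAP1 on DNA, had 222 and 219 CPM in RNF2 shRNA1 libraries, 199 and 206 CPM in the RNF2 shRNA2-labelled libraries, 216 and 211 CPM in PRT4165 libraries, 171 and 173 CPM in GW-516 libraries, and 193 and 196 CPM in Scramble libraries. No neighbouring groups in this order of levels overlapped: GW-516 was lowest, then Scramble, RNF2 shRNA2, PRT4165 and RNF2 shRNA1. TEAD1 rose in RNF2 shRNA1 (log2 fold change 0.18, SE 0.030, edgeR adjusted p = 1e-05) and with PRT4165 (0.14, SE 0.030, edgeR adjusted p = 0.00053), and fell with GW-516 (-0.17, SE 0.030, edgeR adjusted p = 2e-05). Summing the near-identical pairs ended the calls for PRT4165 and GW-516 (adjusted p = 0.064 and 0.061). In the RNF2 shRNA2-labelled libraries it was not called (log2 fold change 0.06, edgeR adjusted p = 0.12), and it depended on single libraries, from 0.019 without replicate 2 of that group (adjusted p = 0.69) to 0.08 without replicate 1 (adjusted p = 0.036).

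CCN1 (CYR61) and CCN2 (CTGF) encode secreted matricellular proteins and are the most widely used readouts of YAP1 with TEAD. CCN1 (chr1:86046444-86049645, plus strand) had 221 and 229 CPM in RNF2 shRNA1 libraries, 41.0 and 39.0 CPM in the RNF2 shRNA2-labelled libraries, 59.4 and 59.9 CPM in PRT4165 libraries, 70.1 and 68.9 CPM in GW-516 libraries, and 50.8 and 50.6 CPM in Scramble libraries. None of the 5 groups overlapped, and the RNF2 shRNA1 libraries were far above the rest. The change in RNF2 shRNA1 was 4.43-fold (log2 fold change 2.15, SE 0.037, edgeR adjusted p = 1.3e-23). CCN1 also rose with PRT4165 (log2 fold change 0.23, SE 0.038, edgeR adjusted p = 1.8e-05) and with GW-516 (0.45, SE 0.037, edgeR adjusted p = 1.7e-10). It fell in the RNF2 shRNA2-labelled libraries (-0.35, SE 0.039, edgeR adjusted p = 7.3e-08).

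CCN2 (chr6:132269316-132272513, minus strand) had 113 and 114 CPM in RNF2 shRNA1 libraries, 63.0 and 58.3 CPM in the RNF2 shRNA2-labelled libraries, 32.7 and 32.3 CPM in PRT4165 libraries, 44.5 and 46.7 CPM in GW-516 libraries, and 58.1 and 59.3 CPM in Scramble libraries. The RNF2 shRNA1 libraries were highest and the PRT4165 libraries lowest, while the RNF2 shRNA2-labelled libraries overlapped Scramble. CCN2 rose in RNF2 shRNA1 (1.93-fold, log2 fold change 0.95, SE 0.042, edgeR adjusted p = 1.3e-15). It fell with PRT4165 (1.81-fold, log2 fold change -0.85, SE 0.044, edgeR adjusted p = 7.8e-14) and with GW-516 (1.29-fold, log2 fold change -0.36, SE 0.043, edgeR adjusted p = 8.5e-08). In the RNF2 shRNA2-labelled libraries the log2 fold change was 0.05, with a 95% interval from -0.04 to 0.13 (edgeR adjusted p = 0.42), and -0.011 without replicate 1 of that group.

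With either compound CCN1 was thus higher and CCN2 lower than in Scramble, in comparisons that share the Scramble libraries. The ratio of CCN1 to CCN2 RPKM was 1.86 and 1.92 in RNF2 shRNA1 libraries, 0.620 and 0.638 in the RNF2 shRNA2-labelled libraries, 1.73 and 1.77 in PRT4165 libraries, 1.502 and 1.41 in GW-516 libraries, and 0.834 and 0.814 in Scramble libraries. CCN1 was the higher of the pair in 3 groups, and CCN2 in Scramble and the RNF2 shRNA2-labelled libraries.

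**Figure D2:**
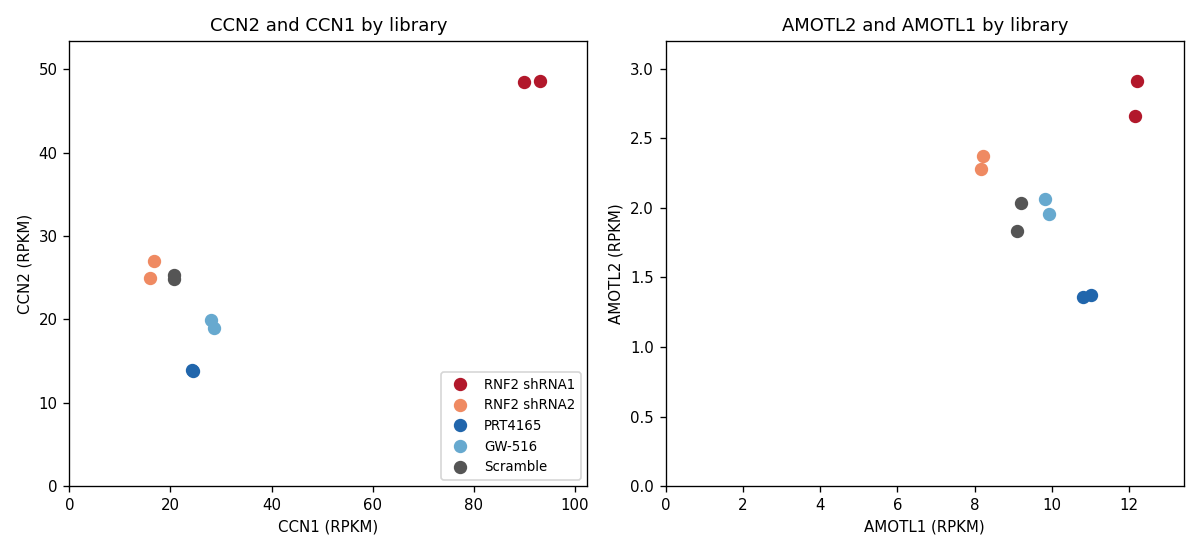
Levels per length (RPKM) of gene pairs by library, CCN1 with CCN2 and AMOTL1 with AMOTL2, each point 1 library coloured by group. RNF2 shRNA1 libraries lie far out on both axes of the first pair, and PRT4165 libraries lie below the others in CCN2 and AMOTL2 but not in CCN1 and AMOTL1.

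The promoters of CCN2 and ANKRD1 are shown because they hold the most copies of the TEAD core motif GGAATG among the 8 members searched. They are the 250 bases before the annotated start in RefSeq (GRCh38.p14, a newer build than that of the count tables), each 5′ to 3′ on the gene's own strand, with GGAATG in capitals. The CCN2 promoter is chr6:131951373-131951622 and that of ANKRD1 chr10:90921088-90921337, both on the minus strand.
CCN2: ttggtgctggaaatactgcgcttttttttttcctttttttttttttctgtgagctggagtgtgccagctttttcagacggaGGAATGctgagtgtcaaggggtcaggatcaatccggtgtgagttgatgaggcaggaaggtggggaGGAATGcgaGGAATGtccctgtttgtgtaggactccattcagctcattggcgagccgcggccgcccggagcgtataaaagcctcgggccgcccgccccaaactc
ANKRD1: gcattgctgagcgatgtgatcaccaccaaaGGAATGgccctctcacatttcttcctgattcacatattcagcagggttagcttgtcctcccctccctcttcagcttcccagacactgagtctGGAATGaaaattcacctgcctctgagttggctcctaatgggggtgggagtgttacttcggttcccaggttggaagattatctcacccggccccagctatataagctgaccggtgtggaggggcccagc
In CCN2 the 3 matches begin at positions -169, -104 and -95 from the start, and in ANKRD1 the 2 matches begin at -220 and -128.

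Of the 10 genes, 8 had promoters in the RefSeq table, with 11 starts in all; CCN1 and TEAD1 had no entry. GGAATG on either strand was found before 6 of the 11 starts, those of YAP1, CCN2 and ANKRD1 and 1 start each of AXL, AMOTL2 and AJUBA. Of all 35116 starts searched, 11.9% held at least 1 match, 0.94% at least 2 and 0.0826% at least 3. The AP-1 motif TGANTCA, present before 6.57% of all starts, was found once among the members, in ANKRD1, outside the GGAATG copies. The CArG box of serum response factor, present before 1.16% of all starts, was found before none of the 11 starts. A match describes the letters of this window and is not evidence of binding.

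ANKRD1, a cardiac ankyrin repeat protein and standard YAP1 target in other cell types, was close to silent (chr10:92671853-92681033, minus strand). It had 2 and 2 counts in RNF2 shRNA1 libraries, 8 and 14 counts in the RNF2 shRNA2-labelled libraries, 6 and 2 counts in PRT4165 libraries, 20 and 25 counts in GW-516 libraries, and 2 and 2 counts in Scramble libraries. The GW-516 libraries were highest, at 0.227 and 0.296 CPM, against 0.0279 and 0.0304 CPM in Scramble libraries. The edgeR adjusted p for GW-516 against Scramble was 0.0011, but the gene passed the filter on low counts through the GW-516 libraries alone, so that it had to differ there. It is left out of the counts of members below, which are over the other 9 genes. Those 9 were at or above the filter level of 0.14 CPM in all 10 libraries.

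AXL encodes a receptor tyrosine kinase that binds GAS6 and is a known YAP1 target in cancer cells. It (chr19:41725108-41767671, plus strand) had 17.7 and 17.8 CPM in RNF2 shRNA1 libraries, 10.1 and 10.4 CPM in the RNF2 shRNA2-labelled libraries, 13.9 and 15.5 CPM in PRT4165 libraries, 12.2 and 12.9 CPM in GW-516 libraries, and 12.8 and 13.9 CPM in Scramble libraries. Both hairpin groups stood clear of Scramble, on opposite sides, and both compound groups overlapped it. AXL rose in RNF2 shRNA1 (log2 fold change 0.41, SE 0.072, edgeR adjusted p = 2.7e-05) and fell in the RNF2 shRNA2-labelled libraries (-0.37, SE 0.074, edgeR adjusted p = 0.00024). Its log2 fold changes were 0.14 with PRT4165 (edgeR adjusted p = 0.13) and -0.09 with GW-516 (edgeR adjusted p = 0.32). The PRT4165 value was 0.23 without PRT4165 replicate 1 (adjusted p = 0.034) and 0.07 without PRT4165 replicate 2 (adjusted p = 0.56).

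AMOTL1 and AMOTL2 encode angiomotin-like scaffolds of cell junctions that bind YAP1 and hold it outside the nucleus, and AMOTL2 is itself a YAP1 target. AMOTL1 (chr11:94439597-94609918, plus strand) had 122 and 122 CPM in RNF2 shRNA1 libraries, 81.9 and 82.6 CPM in the RNF2 shRNA2-labelled libraries, 110.5 and 108 CPM in PRT4165 libraries, 98.6 and 99.7 CPM in GW-516 libraries, and 91.3 and 92.3 CPM in Scramble libraries. The 5 groups did not overlap. AMOTL1 rose in RNF2 shRNA1 (log2 fold change 0.41, edgeR adjusted p = 9e-11), with PRT4165 (0.25, edgeR adjusted p = 7.2e-07) and with GW-516 (0.11, edgeR adjusted p = 0.0057). It fell in the RNF2 shRNA2-labelled libraries (-0.16, edgeR adjusted p = 0.00037). With near-identical pairs summed, the adjusted p was 0.19 for GW-516 and 0.051 for the RNF2 shRNA2-labelled libraries.

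AMOTL2 (chr3:134074716-134094321, minus strand) had 15.9 and 17.4 CPM in RNF2 shRNA1 libraries, 13.6 and 14.2 CPM in the RNF2 shRNA2-labelled libraries, 8.24 and 8.12 CPM in PRT4165 libraries, 12.3 and 11.7 CPM in GW-516 libraries, and 11.0 and 12.2 CPM in Scramble libraries. Both hairpin groups were above Scramble, PRT4165 was below it, and GW-516 overlapped it. AMOTL2 rose in RNF2 shRNA1 (log2 fold change 0.53, edgeR adjusted p = 1.6e-06) and in the RNF2 shRNA2-labelled libraries (0.27, edgeR adjusted p = 0.0051), and fell with PRT4165 (-0.50, edgeR adjusted p = 1.4e-05). The call in the RNF2 shRNA2-labelled libraries was lost with near-identical pairs summed (adjusted p = 0.053), without Scramble replicate 1 (0.14) and without replicate 2 of that group (0.052). With GW-516 the log2 fold change was 0.06 (edgeR adjusted p = 0.55), and -0.0088 without Scramble replicate 1. The ratio of AMOTL1 to AMOTL2 RPKM was 8.00 and 7.96 in PRT4165 libraries, against 4.97 and 4.51 in Scramble libraries, and ranged from 3.47 to 5.08 in the libraries of the remaining groups.

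AJUBA encodes a LIM-domain protein that binds and restrains LATS kinases at junctions. It (chr14:23440383-23451851, minus strand) had 42.6 and 41.6 CPM in RNF2 shRNA1 libraries, 35.1 and 34.4 CPM in the RNF2 shRNA2-labelled libraries, 31.9 and 31.1 CPM in PRT4165 libraries, 36.1 and 36.0 CPM in GW-516 libraries, and 38.8 and 36.6 CPM in Scramble libraries. Only RNF2 shRNA1 lay above Scramble, and the groups did not overlap, though Scramble replicate 2 came near GW-516. AJUBA fell with PRT4165 (log2 fold change -0.26, SE 0.047, edgeR adjusted p = 7.6e-05) and was not called with GW-516 (-0.07, edgeR adjusted p = 0.24). It was called higher in RNF2 shRNA1 (0.16, edgeR adjusted p = 0.0051) and lower in the RNF2 shRNA2-labelled libraries (-0.12, edgeR adjusted p = 0.042). The RNF2 shRNA1 call ended with pairs summed (adjusted p = 0.11), without Scramble replicate 2 (0.058) and without RNF2 shRNA1 replicate 1 (0.057). The call in the RNF2 shRNA2-labelled libraries ended with RLE size factors (0.053), with DESeq2 (0.09), without the filter (0.057), with pairs summed (0.22) and without 3 of the 4 libraries in turn, either Scramble replicate or replicate 2 of that group (0.052 to 0.31).

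LATS2 encodes a kinase that phosphorylates YAP1 and is induced by it, closing a feedback loop. It (chr13:21547171-21635686, minus strand) had 11.4 and 10.9 CPM in RNF2 shRNA1 libraries, 5.40 and 5.71 CPM in the RNF2 shRNA2-labelled libraries, 8.14 and 8.90 CPM in PRT4165 libraries, 9.21 and 8.74 CPM in GW-516 libraries, and 5.99 and 7.19 CPM in Scramble libraries. RNF2 shRNA1 was highest, the compound groups overlapped each other above Scramble, and the RNF2 shRNA2-labelled libraries were just under it. LATS2 rose in RNF2 shRNA1 (1.69-fold, log2 fold change 0.76, SE 0.095, edgeR adjusted p = 2.1e-07), with PRT4165 (0.37, SE 0.096, edgeR adjusted p = 0.0028) and with GW-516 (0.45, SE 0.095, edgeR adjusted p = 0.00026). The PRT4165 call ended without Scramble replicate 1 (adjusted p = 0.093). In the RNF2 shRNA2-labelled libraries the log2 fold change was -0.24 (edgeR adjusted p = 0.054). It was -0.38 without Scramble replicate 1 (adjusted p = 0.014) and -0.09 without Scramble replicate 2 (adjusted p = 0.59).

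**Figure D3:**
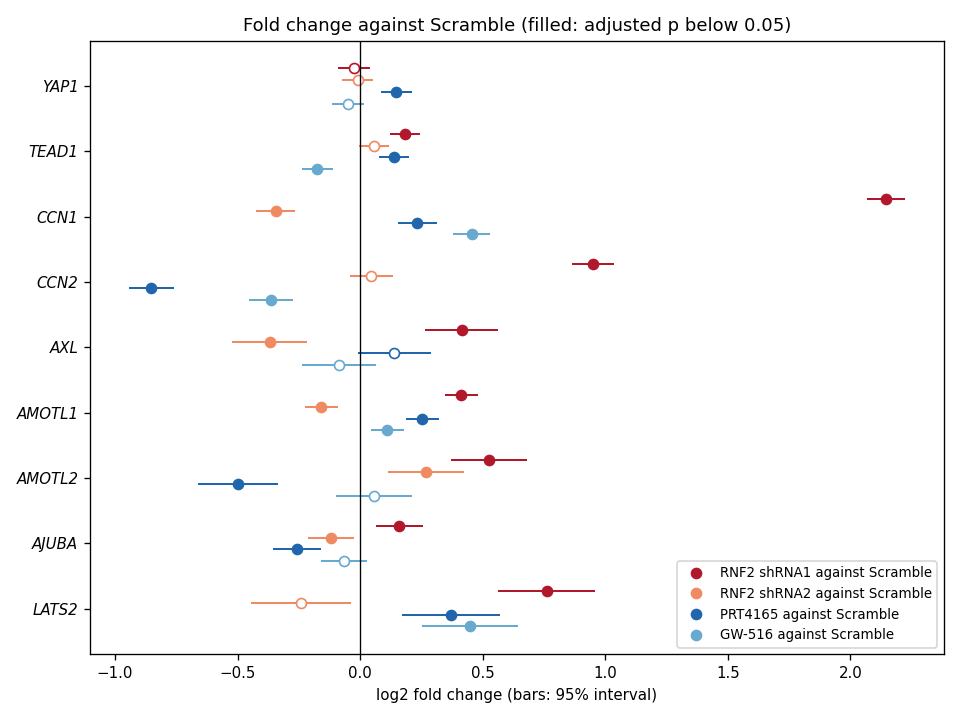
Log2 fold change of the YAP-TEAD genes other than ANKRD1 against Scramble in 4 groups, with 95% intervals. Filled points have an adjusted p below 0.05. RNF2 shRNA1 points lie at or right of 0, with CCN1 at 2.15, whereas PRT4165 points fall on both sides, with CCN2 at -0.85.

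Against Scramble, 8 of the 9 genes rose in RNF2 shRNA1, and YAP1 was the one not called. Summing near-identical pairs ended the AJUBA call (edgeR adjusted p = 0.11). These genes were chosen with earlier results of these data known, so the count is only a description. The median log2 fold change of the 9 was 0.415, against -0.015 over all genes tested. Of all 18478 genes tested 54.7% were called in this comparison, 26.2% higher and 28.6% lower. CCN1 was the only one of the 9 to change by at least 2-fold, as 8.57% of all genes did, including 4.33% that rose. Without the RNF2 shRNA2-labelled libraries in the fit, the call of each member stayed on its side of the threshold in each of the 3 other comparisons against Scramble and in GW-516 against PRT4165.

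In the RNF2 shRNA2-labelled libraries, AMOTL2 rose, CCN1, AXL, AMOTL1 and AJUBA fell, and YAP1, TEAD1, CCN2 and LATS2 were not called. Of all genes 42.1% were called, 21.1% higher and 21.0% lower. The median log2 fold change was -0.119 for the 9 genes and 0.00858 for all genes, and the median size of change was smaller than over all genes (0.158 against 0.224). Summing near-identical pairs left 2 of the 5 calls, CCN1 and AXL.

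With PRT4165, YAP1, TEAD1, CCN1, AMOTL1 and LATS2 rose, CCN2, AMOTL2 and AJUBA fell, and AXL was not called. Of all genes 41.6% were called, 19.9% higher and 21.7% lower. The median log2 fold change was 0.14 for the 9 genes and -0.0119 for all genes. With GW-516, CCN1, AMOTL1 and LATS2 rose and TEAD1 and CCN2 fell, so that 5 of 9 were called, a share near the 55.5% of all genes (26.5% higher, 29.0% lower). Summing near-identical pairs ended the calls of TEAD1 with either compound and of AMOTL1 with GW-516. The median size of change with GW-516 was 0.111 for the 9 genes, against 0.309 for all genes.

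The hairpin groups differed from each other in 8 of the 9 genes, every one lower in the RNF2 shRNA2-labelled libraries than in RNF2 shRNA1 libraries, with YAP1 not called (log2 fold change 0.016, 95% interval -0.05 to 0.08, edgeR adjusted p = 0.69). Of all genes 59.2% were called between these groups, 29.9% higher and 29.2% lower. The median log2 fold change was -0.57 for the 9 genes and 0.0116 for all genes. CCN1 differed most, at 39.997 ± 1.43 CPM in the RNF2 shRNA2-labelled libraries and 225 ± 5.71 CPM in RNF2 shRNA1 libraries (5.62-fold, log2 fold change -2.49, SE 0.038, edgeR adjusted p = 1.5e-24). LATS2 followed with a log2 fold change of -1.0 (SE 0.094, edgeR adjusted p = 1.5e-09), which lies on the 2-fold threshold. Of all genes, 11.2% were called with at least a 2-fold difference, and 6.39% were lower by that much. CCN2 (-0.91), AXL (-0.78), AMOTL1 (-0.57), AJUBA (-0.28), AMOTL2 (-0.26) and TEAD1 (-0.12) completed the group, with edgeR adjusted p from 1.8e-15 to 0.0035. The AMOTL2 call ended without RNF2 shRNA1 replicate 2 (adjusted p = 0.064).

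The compounds, both applied for 48 hours at doses the labels do not give, differed in 8 of the 9 genes. GW-516 was higher than PRT4165 in AMOTL2 (log2 fold change 0.56, edgeR adjusted p = 2.6e-06), CCN2 (0.49, edgeR adjusted p = 3.1e-09), CCN1 (0.22, edgeR adjusted p = 2.8e-05) and AJUBA (0.19, edgeR adjusted p = 0.0016). It was lower in TEAD1 (-0.31, edgeR adjusted p = 7e-09), AXL (-0.23, edgeR adjusted p = 0.013), YAP1 (-0.20, edgeR adjusted p = 1.3e-05) and AMOTL1 (-0.14, edgeR adjusted p = 0.00095). LATS2 was not called, with a log2 fold change of 0.08 and a 95% interval from -0.11 to 0.27. Of all genes 41.1% were called between the compounds, 18.1% higher and 23.0% lower with GW-516, and 4.38% differed by at least 2-fold. Summing near-identical pairs ended the calls of AXL, AMOTL1 and AJUBA (adjusted p = 0.094, 0.089 and 0.057). The AXL call also ended without PRT4165 replicate 2 (0.19, log2 fold change -0.14) and without GW-516 replicate 1 (0.14).

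Gene lists of 4 further kinds of the pathway were counted, none holding a member of the 10. They too were chosen with earlier results of these data known. The first has 20 kinases, scaffolds and junction proteins of the Hippo pathway, of which 18 were tested and AMOT and WWC3 were too low. In RNF2 shRNA1, 14 of the 18 rose and WWC1, a kinase-binding scaffold named after its values were seen, fell (log2 fold change -0.51), beside 26.2% of all genes higher and 28.6% lower. Among those that rose were the kinase MAP4K4 (log2 fold change 0.64), the tumour suppressor NF2 (0.58), the scaffold WWC2 (0.57) and the LIM protein LIMD1 (0.42). The median log2 fold change of the 18 tested genes was 0.298, against -0.015 over all genes. In the RNF2 shRNA2-labelled libraries, 8 rose and 2 fell (all genes 21.1% and 21.0%), with MAP4K4 at 0.46, the FERM-domain protein FRMD6 at 0.62 and NF2 at 0.39. With PRT4165, 9 rose and 2 fell (all genes 19.9% and 21.7%), with FRMD6 at 0.53 and NF2 at 0.44. With GW-516, 7 rose and 3 fell (all genes 26.5% and 29.0%), with FRMD6 at 0.91 and the kinase STK3 at -0.40. With near-identical pairs summed, 3 rose and 1 fell with GW-516, and those that fell numbered 1 in the RNF2 shRNA2-labelled libraries and 0 with PRT4165.

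Between the hairpin groups, all 18 were called, 13 lower and 5 higher in the RNF2 shRNA2-labelled libraries than in RNF2 shRNA1, where 59.2% of all genes were called, 29.2% lower and 29.9% higher. STK3 (log2 fold change -0.60) and STK4 (-0.39), the kinases that activate LATS, were among the lower ones, and WWC1 (0.62) among the higher ones, which numbered 3 with pairs summed. GW-516 was lower than PRT4165 in 9 of the 18 and higher in 3, beside 23.0% and 18.1% of all genes. With near-identical pairs summed these counts were 3 and 1. The phosphatase PTPN14, which binds YAP1, was lower with GW-516 (-0.27), as was NF2 (-0.22), and FRMD6 was higher (0.37).

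The second list holds the other TEAD factors, the YAP1 paralog TAZ (WWTR1) and the VGLL cofactors that compete for TEAD, of which 6 of 7 were tested and VGLL1 was too low. WWTR1 averaged 299.6 ± 0.192 CPM in RNF2 shRNA1 libraries, 249 ± 5.89 CPM in the RNF2 shRNA2-labelled libraries, 174 ± 0.317 CPM in PRT4165 libraries, 187 ± 0.974 CPM in GW-516 libraries and 269 ± 3.53 CPM in Scramble libraries (SD, n = 2 each). It fell with PRT4165 (log2 fold change -0.62, edgeR adjusted p = 6.8e-15) and with GW-516 (-0.53, edgeR adjusted p = 6.6e-14). In RNF2 shRNA1 it rose (0.16, edgeR adjusted p = 4.5e-05), and in the RNF2 shRNA2-labelled libraries it fell (-0.11, edgeR adjusted p = 0.0025). VGLL3 fell in RNF2 shRNA1 (-1.26, edgeR adjusted p = 1.9e-08) and rose with PRT4165 (0.82, edgeR adjusted p = 1.8e-06) and GW-516 (0.54, edgeR adjusted p = 0.00021). TEAD3 fell in the RNF2 shRNA2-labelled libraries (-0.98, edgeR adjusted p = 9.5e-09) and rose with GW-516 (0.37). TEAD4 fell in RNF2 shRNA1 (-0.42, edgeR adjusted p = 2.1e-07), with PRT4165 (-0.23) and with GW-516 (-0.46, edgeR adjusted p = 4.5e-08). In the RNF2 shRNA2-labelled libraries TEAD4 rose (0.16, edgeR adjusted p = 0.014). TEAD2 fell in RNF2 shRNA1 (-0.42) and the RNF2 shRNA2-labelled libraries (-0.29). VGLL4 rose in RNF2 shRNA1 (0.19), the RNF2 shRNA2-labelled libraries (0.47), with PRT4165 (0.25) and with GW-516 (0.35). Over the list, 2 rose and 3 fell in RNF2 shRNA1, 2 and 3 in the RNF2 shRNA2-labelled libraries, 2 and 2 with PRT4165, and 3 and 2 with GW-516. The shares of all genes called in these comparisons were 54.7%, 42.1%, 41.6% and 55.5%. With pairs summed, 1 rose in the RNF2 shRNA2-labelled libraries.

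Another list holds 18 other genes commonly used as YAP1 or TAZ targets, of which 17 were tested and FOXF2 was too low. In RNF2 shRNA1, 9 rose and 4 fell, with a median log2 fold change of 0.156. The growth factor regulator CRIM1 (0.45) and the membrane remodelling protein ASAP1 (0.43) were among those that rose, and FJX1 (-0.52) among those that fell. In the RNF2 shRNA2-labelled libraries, 5 rose and 6 fell. GADD45A (0.50), DOCK5 (0.54) and ASAP1 (0.39) were among those that rose, and IGFBP3, an insulin-like growth factor binding protein (-0.75), among those that fell. With PRT4165, 8 rose and 5 fell, and with GW-516, 7 rose and 6 fell. The shares of all genes higher and lower were 26.2% and 28.6% in RNF2 shRNA1, 21.1% and 21.0% in the RNF2 shRNA2-labelled libraries, 19.9% and 21.7% with PRT4165, and 26.5% and 29.0% with GW-516. With pairs summed, 2 fell in RNF2 shRNA1 and 3 with PRT4165. IGFBP3 averaged 47.5 ± 1.02 CPM in PRT4165 libraries and 49.98 ± 0.987 CPM in GW-516 libraries, against 19.7 ± 0.174 CPM in Scramble libraries (SD, n = 2 each; log2 fold changes 1.26 and 1.34, edgeR adjusted p = 3.8e-16 and 5.2e-17). The ectonucleotidase NT5E (CD73) rose with GW-516 (log2 fold change 1.32, edgeR adjusted p = 5.1e-15) and was 1.16 higher on the log2 scale with GW-516 than with PRT4165 (edgeR adjusted p = 1.7e-13). BIRC5, the apoptosis inhibitor survivin and also a proliferation gene, fell with GW-516 (-0.63, edgeR adjusted p = 4.8e-15).

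The last list holds 15 genes driven by serum response factor with its actin-regulated coactivators, a pathway that also targets CCN1, CCN2 and ANKRD1. CNN1, MYL9 and FILIP1L were too low, which left 12. In RNF2 shRNA1, 4 rose and 5 fell, with TPM1, an actin-binding tropomyosin, at -1.01 and the LIM protein FHL2 at 0.51. With PRT4165, 9 rose and 3 were not called, among them non-muscle myosin MYH9 (log2 fold change 0.42), filamin FLNA (0.44) and beta-actin ACTB (0.33). With GW-516, 7 rose and 4 fell (2 and 1 with pairs summed), with FHL2 at 0.42, and in the RNF2 shRNA2-labelled libraries, 6 rose and 3 fell. With pairs summed, 2 rose in RNF2 shRNA1 and 3 in the RNF2 shRNA2-labelled libraries. GW-516 was lower than PRT4165 in 9 of the 12, including ACTB (-0.42), MYH9 (-0.35) and FLNA (-0.31), a count of 5 with pairs summed. Of all genes, 23.0% were lower with GW-516 than with PRT4165. Against Scramble, the shares of all genes higher and lower were 26.2% and 28.6% in RNF2 shRNA1, 21.1% and 21.0% in the RNF2 shRNA2-labelled libraries, 19.9% and 21.7% with PRT4165 and 26.5% and 29.0% with GW-516.

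**Figure D4:**
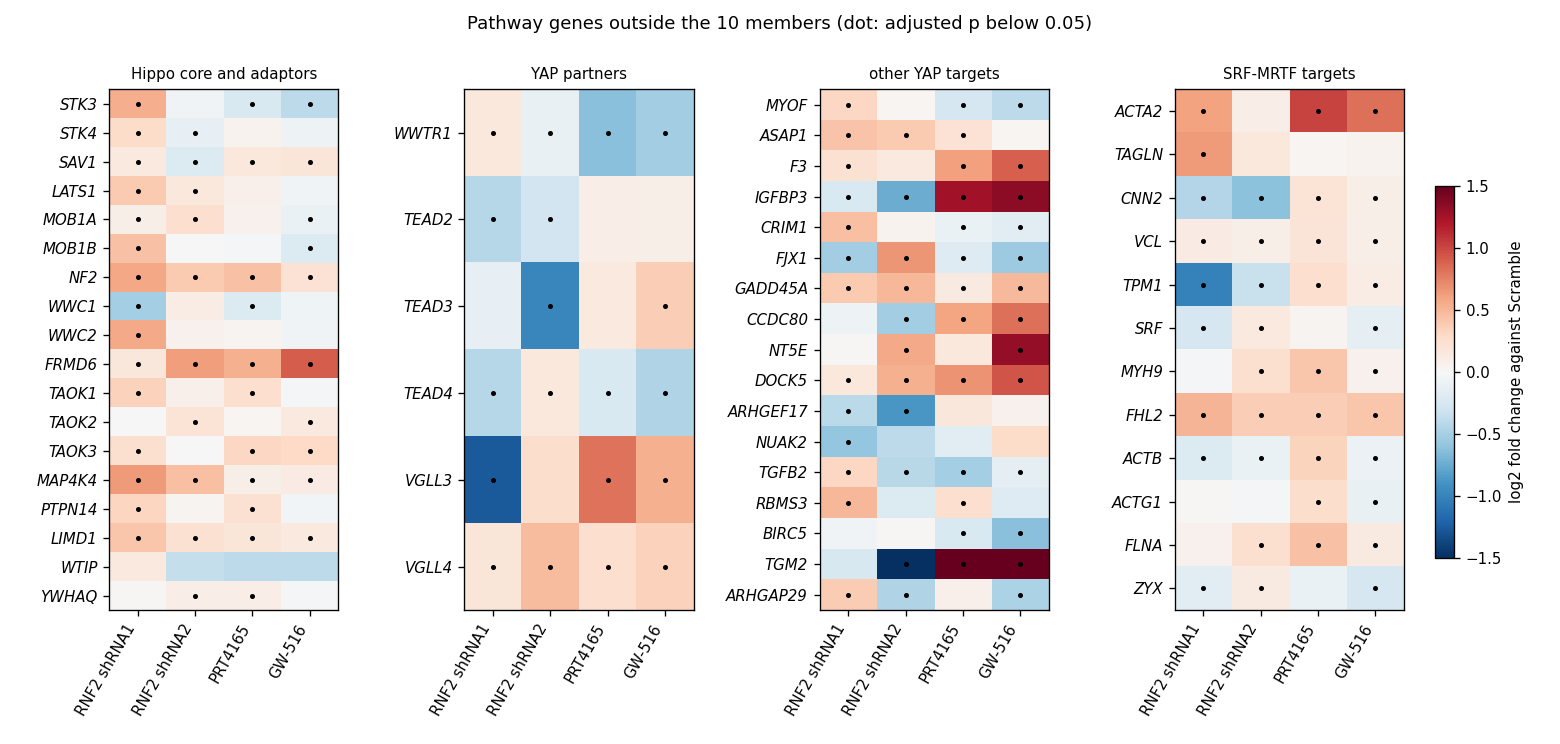
Log2 fold change against Scramble (colour, limited to 1.5 in either direction) of each tested gene of the 4 pathway lists in 4 groups, with a dot where the adjusted p was below 0.05. Hippo genes are mostly higher in RNF2 shRNA1, WWTR1 is lower with both compounds, and actin-regulated genes are mostly higher with PRT4165.

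The genes whose levels followed CCN1 and CCN2 most closely were sought among genes averaging 10 CPM or more with a comparable range of group means. Over the 10 libraries, which hold only 5 groups, Pearson r with CCN1 was 0.997 for MIR100HG, the host transcript of a microRNA cluster, and 0.989 for the inositol transporter SLC5A3, of 500 genes compared. CCN1 averaged 225 CPM in RNF2 shRNA1 libraries and 40.0 to 69.5 CPM in the other groups, so r rests largely on the RNF2 shRNA1 libraries. MIR100HG averaged 284 CPM in RNF2 shRNA1 libraries, 89.3 CPM in the RNF2 shRNA2-labelled libraries, 123 CPM with PRT4165, 129 CPM with GW-516 and 111 CPM in Scramble libraries, the same order of groups as CCN1. Next came ENSG00000232386 (r = 0.988), with no symbol in the name table. For CCN2 the closest of 1249 genes were HERC5, an interferon-induced ligase (r = 0.986), PARM1, a mucin-like protein (r = 0.976), and GPCPD1, a phosphodiesterase (r = 0.976). The same search for ANKRD1 rests on 2 to 25 counts per library and returned NT5E (r = 0.957), GLA (r = 0.944) and SCEL (r = 0.909) of 577 genes. Because ANKRD1 passed the filter through the GW-516 libraries alone, its pattern is high there by that choice, and nothing is read from these values.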

How the data were processed

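Per the labels, total RNA of 10 PC3 libraries, 2 in each of 5 groups, was made into stranded messenger RNA libraries and sequenced in pairs. The authors deposited raw, unnormalized counts for each gene. Per the file headers, featureCounts 1.4.3-p1 counted with strand option 2 on GENCODE 18 and no pair option, which counts both ends of a fragment and understates counting noise. The submitters' processing notes name STAR, DESeq2 1.8.1 and the build GRCh37, with no roles. In the sources used here neither the STAR version nor the treatment of multiply matching reads is stated. A symbol was found for 89.63% of the 57445 gene identifiers in the name table.

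Counts were tested with edgeR 4.0.16 in R 4.3.3: TMM normalization (factors 0.972 to 1.05), filterByExpr with a minimum count of 10, a single model of the 5 groups (10 libraries, leaving 5 degrees of freedom), two-sided robust quasi-likelihood tests with Benjamini-Hochberg adjustment over 18478 genes and calls at an adjusted p below 0.05. CPM are TMM-normalized, and RPKM divide them by exon length. The test was run on simulated counts with the same spread for every gene. Those counts do not hold the near-identical pairs, so nothing is concluded from them on the p-values here. Alternatives were RLE size factors, DESeq2 1.42.0, no filter, the compared groups alone, a replicate block, near-identical pairs summed, the RNF2 shRNA2-labelled libraries left out, and each library left out in turn. The 10 genes and the lists were chosen with earlier results of these data known. Named besides the 10 genes were RNF2 and BMI1, up to 4 genes per list and comparison with the smallest adjusted p, and for the 3 members with the widest range of group means the 3 genes with the highest Pearson r. Promoter letters are from RefSeq (GRCh38.p14). Tables came from pandas 2.3.3 under Python 3.11.15, and plots from matplotlib 3.10.9.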

Additional observations from a re-analysis of the deposited data

How the results depend on the processing

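Over 6 comparisons, 636 values of the 10 genes were recomputed under the alternatives: 593 kept direction and side of the threshold, 34 lost their call, 3 gained one and 6 changed sign, none of the 6 called either way. With each library left out in turn, these log2 fold changes ran from -0.011 to 0.0903 for CCN2 in the RNF2 shRNA2-labelled libraries, from -0.0046 to 1.34 for ANKRD1 with PRT4165, from -0.0088 to 0.15 for AMOTL2 with GW-516 and from -0.0713 to 0.00021 for YAP1 with GW-516. Between the hairpin groups, YAP1 ran from -0.011 to 0.019, and was -0.0043 with pairs summed. Of 60 values under near-identical pairs summed, a fit with 2 residual degrees of freedom, 11 lost their call, and of 240 with a library left out 17 did. Counting ANKRD1, 5 of the 10 genes were called in the RNF2 shRNA2-labelled libraries against Scramble, 2 with pairs summed and 3 to 6 with each library left out. For a change of at least 2-fold, the count between the RNF2 shRNA2-labelled libraries and RNF2 shRNA1 was 3, and 1 to 2 with a library left out. Between GW-516 and PRT4165 it was 1, and 0 to 1 (ANKRD1 alone, lost without PRT4165 replicate 2 or GW-516 replicate 2). Both 2-fold counts include ANKRD1, which had to be high with GW-516 by the filter. Over all genes, 11.2% were called with at least a 2-fold difference between the hairpin groups and 4.38% between the compounds. Deviations of same-numbered libraries from their group means were nearly uncorrelated between groups (correlation -0.0884 to 0.0161 over 13104 genes). Within Scramble, RNF2 shRNA1 and GW-516 these deviations are little more than counting noise. The check therefore cannot tell whether same-numbered libraries shared a batch. With the replicate block, calls were counted over the 10 genes, including ANKRD1, which passed the filter through the GW-516 libraries alone. Against Scramble they numbered 8 in RNF2 shRNA1 (54.7% of all genes in the main fit) and 5 in the RNF2 shRNA2-labelled libraries (42.1%). With PRT4165 they numbered 8 (41.6%) and with GW-516 6 (55.5%). They numbered 8 between the hairpin groups (59.2%) and 9 between the compounds (41.1%). One call was lost, that of ANKRD1 between the hairpin groups (adjusted p = 0.054, edgeR, log2 fold change 1.97). Left alone, the compared groups gave values for 56 of 60, since ANKRD1 was then filtered out of the other 4. List counts under DESeq2 and with pairs summed were added after seeing the data. Depth limits ANKRD1 alone among the 10 genes.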

Other observations

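Among the other YAP1 targets, TGM2, a transglutaminase that crosslinks matrix proteins, was named after its values were seen. It averaged 0.839 ± 0.0041 CPM in RNF2 shRNA1 libraries, 0.0986 ± 0.0585 CPM in the RNF2 shRNA2-labelled libraries, 3.15 ± 0.0505 CPM in PRT4165 libraries, 3.20 ± 0.611 CPM in GW-516 libraries and 0.987 ± 0.321 CPM in Scramble libraries (SD, n = 2 each). It fell in the RNF2 shRNA2-labelled libraries (log2 fold change -3.20, SE 0.35, edgeR adjusted p = 6.4e-08) and rose with PRT4165 (1.66, SE 0.213, edgeR adjusted p = 7.2e-07) and GW-516 (1.69, SE 0.211, edgeR adjusted p = 2.6e-07). Its mean in the RNF2 shRNA2-labelled libraries was under the filter level of 0.14 CPM, so the size of that fall rests on levels near the floor. In RNF2 shRNA1, where CCN1 and CCN2 were highest, its log2 fold change was -0.24 (edgeR adjusted p = 0.44). F3, the coagulation initiator tissue factor, also named after its values were seen, averaged 9.37 ± 0.580 CPM in PRT4165 libraries and 11.5 ± 0.210 CPM in GW-516 libraries, against 6.13 ± 0.390 CPM in Scramble libraries (log2 fold changes 0.61 and 0.90, edgeR adjusted p = 6.6e-06 and 5.3e-09).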
